A study of Drosophila melanogaster with 6 samples.

Results

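The Toll and Imd pathways are the immune signalling routes of Drosophila melanogaster, and 10 of their genes are described here: PGRP-SA, PGRP-LC, spz, Tl, imd, Rel, Dif, dl, pirk and PGRP-LB. They were picked by symbol from a deposited table of 17807 genes, and each symbol matched 1 row. RNA was sequenced from 6 muscle-enriched lysates of larvae near the end of larval life, each a pool of 7 to 10 animals grown for about 90 h. In the 3 tmodRNAi libraries a UAS hairpin against tmod, the gene of the actin filament capping protein tropomodulin, was driven by Dmef2-Gal4. In the 3 mCherryRNAi libraries the same driver expressed a hairpin against mCherry, a fluorescent protein absent from flies, as the control. Both genotypes carried UAS-dcr2, which strengthens RNA interference. Dmef2-Gal4 drives expression in muscle, so the knockdown was aimed at muscle and not at the blood cells and fat body where these pathways are best known. The labels number the libraries of each genotype as biological replicates 1 to 3 and do not say whether the pools were reared apart. P-values therefore measure the spread between these libraries. The tissue field reads adult body wall, whereas the growth protocol and title name larvae.

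Both pathways turn the detection of microbes into nuclear NF-kB proteins that switch on antimicrobial peptide genes. In the Toll pathway, circulating recognition proteins such as PGRP-SA start a protease cascade that cleaves the ligand Spatzle (spz), which binds the receptor Toll (Tl) and frees the factors Dif and Dorsal (dl) from their inhibitor Cactus. In the Imd pathway, peptidoglycan binds the membrane receptor PGRP-LC, the adaptor Imd is recruited, and the factor Relish (Rel) is cleaved and enters the nucleus, while pirk and PGRP-LB restrain the signal. Fat body and hemocytes are the main sites of the systemic response. Tl and dl also pattern the embryo, and dl, cact and pll act at the postsynaptic side of the larval neuromuscular junction.

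The hairpin target and the libraries were checked first. The tmodRNAi mean of tmod was 17.1% of the mCherryRNAi mean. Whole reads recovered from the table numbered 83824273 to 110151028 per library, so that 3 reads equal 2.41 to 3.31 normalized counts and the 10 genes lie far above this floor, which covers counting error only. Muscle markers were abundant: the summed level of 10 muscle genes, all detected in each library, was 10814811, 11335817 and 12252904 normalized counts in tmodRNAi replicates 1 to 3, against 6986805, 2046962 and 2678850 in mCherryRNAi replicates 1 to 3. Of these 10 genes, 6 were higher in tmodRNAi by the test used below, against 10.9% of all tested genes. Control replicate 1 stood apart from the other controls and toward the knockdown. RNA of other cell types was present too. The sum of 8 fat body markers was 306852, 985600.3 and 822503 in tmodRNAi replicates 1 to 3. In mCherryRNAi replicates 1 to 3 it was 168067, 269337 and 248002. Of the 8, 4 were higher, against 10.9% of all tested genes. Fbp1 went the other way, at a log2 fold change of -0.50, and was not called. The sum of 10 hemocyte markers was 269615 to 340177 in tmodRNAi and 195423 to 250528 in mCherryRNAi. Of the 10, 2 were higher (PPO1 and PPO2) and 3 lower (eater, He and srp), against 10.9% and 12.9% of all tested genes. No marker of these lists had 0 reads throughout. In such bulk samples, fewer cells of a type and less RNA per cell cannot be told apart. The part of these cell types in the differences below was not tested.

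By limma on log2(normalized count + 1), 2613 of 10969 tested genes (23.8%) passed an adjusted p-value of 0.05, with 1195 higher (10.9%) and 1418 lower (12.9%) in tmodRNAi. All 10 pathway genes passed the filter of a mean of at least 10 normalized counts. PGRP-SA rose and Tl fell. These 2 calls among 10 genes are near the share over all genes. The other methods gave 2 to 3 calls among the 10, where the share over all genes was 23.5% and 23.2% with pseudocounts of 0.1 and 10, 14.6% with no filter, 28.6% with a minimum mean of 50, 25.9% with median centring, 21.9% with quantile normalization and 22.0% in edgeR. Limma without the trend called 1 of the 10 and 8.70% of all genes, and DESeq2 called 4 of the 10 and 39.8%. The groups did not overlap for 4 of the 10 (PGRP-SA, dl, imd and Tl), against 51.4% of all tested genes: 2 were higher in tmodRNAi, against 25.0%, and 2 lower, against 26.4%. The median log2 fold change was 0.09 over the 10 genes and 0.02 over all tested genes. Of the 10 values, 6 were positive and 4 negative.

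**Figure D1:**
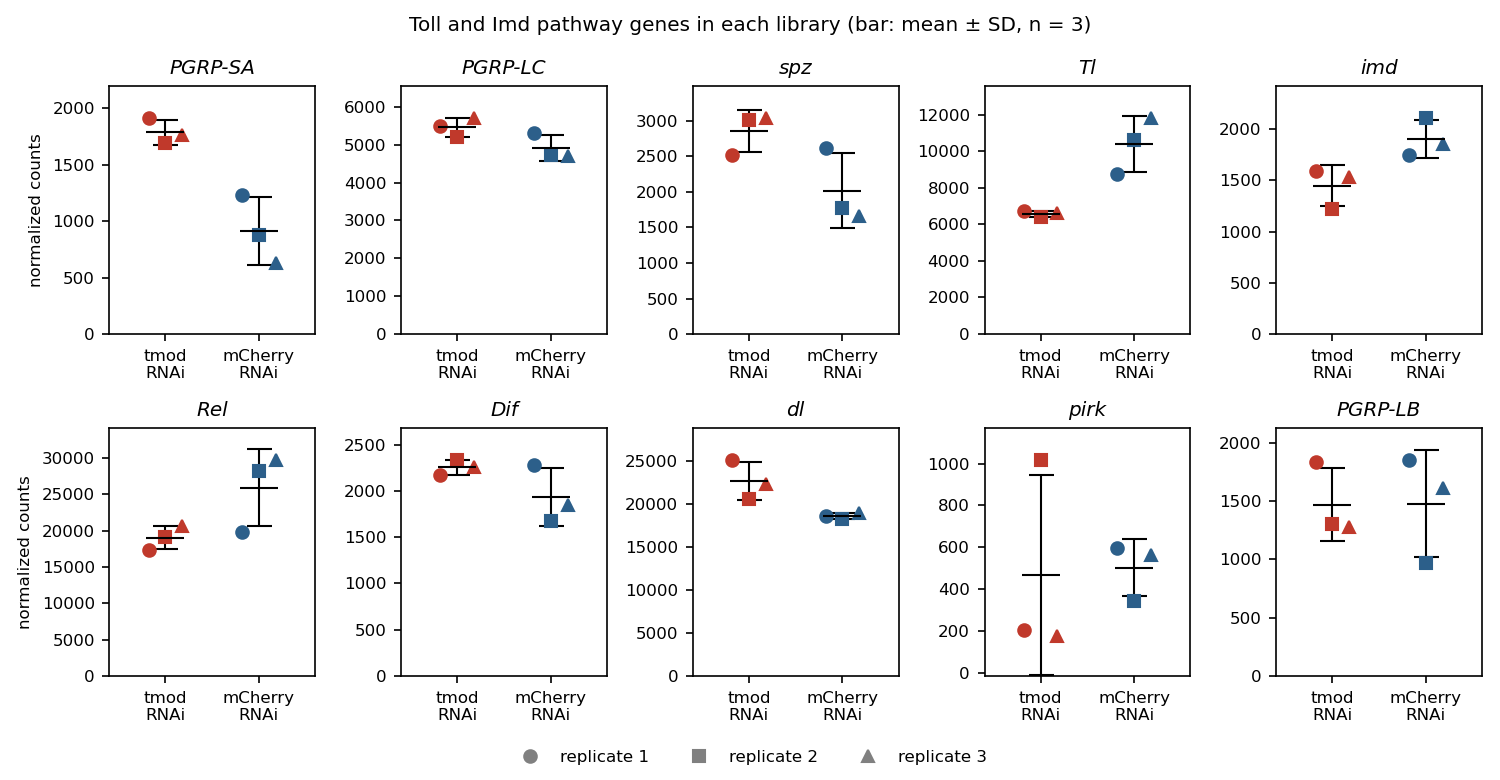
Normalized counts (vertical axis, linear, 1 panel per gene) of the 10 genes in tmodRNAi and mCherryRNAi libraries; symbols mark replicates 1 to 3 and bars the mean ± SD (n = 3 each). The groups are apart for PGRP-SA, Tl, imd and dl, and the tmodRNAi value of pirk in replicate 2, at 1017, lies far above 203 and 176 in the other tmodRNAi libraries.

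PGRP-SA (FBgn0030310) encodes a secreted recognition protein for Lys-type peptidoglycan, found mainly in Gram-positive bacteria, and acts upstream of Toll. It lies on the plus strand of chromosome X from 11561643 to 11562779 (dm6 coordinates, BDGP6.54 annotation, for each position given here). Its level was 1909, 1695 and 1758 normalized counts in tmodRNAi replicates 1 to 3, against 1233, 876 and 626 in mCherryRNAi replicates 1 to 3. Every tmodRNAi library exceeded every control, and the controls spread more widely than the tmodRNAi libraries. The means were 1787 ± 110.2 in tmodRNAi and 912 ± 305 in mCherryRNAi (SD, n = 3 each). PGRP-SA rose by 1.02 on the log2 scale (SE 0.24, 95% interval 0.43 to 1.61, adjusted p = 0.037, limma). The exact two-sided permutation p was 0.1, the smallest that 3 libraries against 3 allow. With 1 library removed at a time, the call held without mCherryRNAi replicate 1 (adjusted p = 0.0015, limma) and was lost in the other 5 fits (0.094 to 0.127). It was also lost in limma without the trend (0.057). The fat body, muscle and hemocyte sums given above, and the neuron sum given below, were also higher in each tmodRNAi library than in each control. These sums do not stand for each marker. By limma 3 of the 10 hemocyte markers were lower and 2 higher, against 12.9% and 10.9% of all tested genes. Of the 6 neuron markers, 1 was higher and 0 lower, and brp, nSyb and Syt1 overlapped between the groups. The part of these cell types in the rise of PGRP-SA was not tested.

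PGRP-LC (FBgn0035976; chromosome 3L, 9338810 to 9348336, plus strand) encodes the transmembrane receptor for DAP-type peptidoglycan at the head of the Imd pathway. It had 5486, 5206 and 5697 normalized counts in tmodRNAi replicates 1 to 3, against 5310.1, 4723 and 4713 in mCherryRNAi replicates 1 to 3. The groups overlapped through control replicate 1, and this gene had the second narrowest spread among the controls, with a highest to lowest ratio of 1.13. Its log2 fold change was 0.15 (SE 0.08, 95% interval -0.04 to 0.35, adjusted p = 0.19, limma). Isoforms of PGRP-LC, which differ in their recognition domain, are not separated in gene-level values.

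Of the receptor and ligand genes of the Toll pathway, Tl passed the test and spz did not. Tl (FBgn0262473; chromosome 3R, 26799041 to 26842403, plus strand) encodes the Toll receptor. It had 6732, 6385 and 6609 normalized counts in tmodRNAi replicates 1 to 3, against 8736, 10647 and 11808 in mCherryRNAi replicates 1 to 3. The tmodRNAi libraries lay close together, with a highest to lowest ratio of 1.05, and all were below the lowest control. The means were 6575 ± 176 in tmodRNAi and 10397 ± 1551 in mCherryRNAi (SD, n = 3 each), which puts tmodRNAi at 63.2% of mCherryRNAi. Tl fell by 0.65 on the log2 scale (SE 0.12, 95% interval -0.94 to -0.36, adjusted p = 0.031, limma; exact permutation p = 0.1). It passed in limma without the trend (0.049), in edgeR (0.032) and in DESeq2 (9.1e-05). Of the 6 fits leaving out 1 library, only that without mCherryRNAi replicate 1 kept the call (0.00058; the others 0.070 to 0.122).

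spz (FBgn0003495; chromosome 3R, 27064990 to 27070070, minus strand) encodes the cytokine-like ligand Spatzle, secreted as a precursor. It had 2521, 3016 and 3037 normalized counts in tmodRNAi replicates 1 to 3, against 2619, 1780 and 1660.1 in mCherryRNAi replicates 1 to 3. Control replicate 1 lay within the range of the tmodRNAi libraries, and the other controls lay below it. The log2 fold change was 0.53 (SE 0.19, 95% interval 0.06 to 0.99, adjusted p = 0.086, limma). Without control replicate 1 it was 0.73 and passed (0.0029). Per kb of exon, the level of Tl divided by that of spz was 1.21, 0.963 and 0.990 in tmodRNAi replicates 1 to 3, against 1.52, 2.72 and 3.23 in mCherryRNAi replicates 1 to 3. This ratio, chosen after the values were seen, did not overlap between the groups.

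imd (FBgn0013983; chromosome 2R, 18409796 to 18413599, minus strand) encodes the death-domain adaptor that carries the signal from PGRP-LC. It had 1592, 1221 and 1531 normalized counts in tmodRNAi replicates 1 to 3, against 1752, 2106 and 1856 in mCherryRNAi replicates 1 to 3. All tmodRNAi values were below all controls. On the log2 scale the difference was -0.40 (SE 0.13, 95% interval -0.72 to -0.08, adjusted p = 0.069, limma; exact permutation p = 0.1). It passed with median centring (0.046), in DESeq2 (0.038) and without mCherryRNAi replicate 1 (0.039). Its exons overlap those of GstE9 on the opposite strand over 40 bases, 2.64% of its exonic length.

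**Figure D2:**
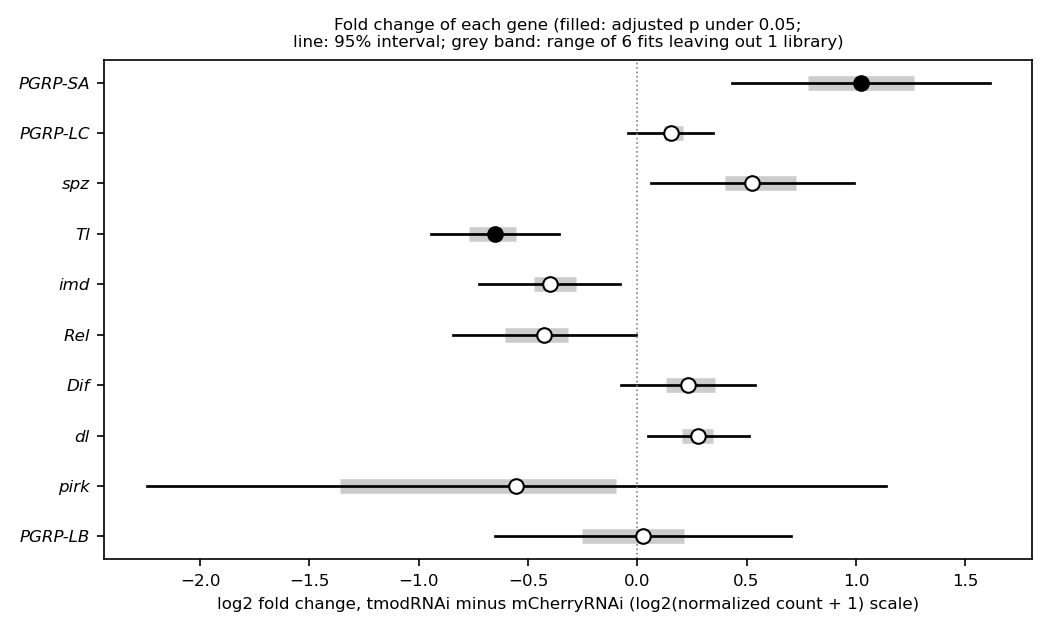
Log2 fold change of the 10 genes, tmodRNAi minus mCherryRNAi (horizontal axis), with the 95% interval as a line and the range of the 6 fits that each left out 1 library as a grey band; filled points have an adjusted p under 0.05 by limma. PGRP-SA at 1.02 and Tl at -0.65 are filled, and the interval of pirk is the widest, from -2.24 to 1.14.

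None of the 3 NF-kB factor genes passed by limma, and Rel and dl had an unadjusted p under 0.05. Rel (FBgn0014018; chromosome 3R, 9044183 to 9047977, minus strand) encodes Relish, the factor of the Imd pathway, made as a precursor with its own inhibitory region. It had 17383, 19131 and 20609 normalized counts in tmodRNAi replicates 1 to 3, against 19852, 28147 and 29665 in mCherryRNAi replicates 1 to 3. Control replicate 1 lay within the tmodRNAi range, and the other controls lay above it. On the log2 scale the difference was -0.42 (SE 0.17, 95% interval -0.84 to -0.01, adjusted p = 0.11, limma). Without control replicate 1 it was -0.61 (adjusted p = 0.0031, limma). Leaving out any other single library gave -0.32 to -0.48, and none of those fits passed. With quantile normalization it was -0.23 (adjusted p = 0.28, limma).

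dl (FBgn0260632; chromosome 2L, 17436830 to 17450364, minus strand) encodes Dorsal. It had 25041, 20596 and 22259 normalized counts in tmodRNAi replicates 1 to 3, against 18627, 18226 and 18917 in mCherryRNAi replicates 1 to 3. The controls were nearly level, with a highest to lowest ratio of 1.04, and all tmodRNAi libraries lay above them. The log2 difference was 0.28 (SE 0.09, 95% interval 0.05 to 0.51, adjusted p = 0.073, limma; exact permutation p = 0.1). It passed with quantile normalization (0.034) and in DESeq2 (0.019). dl differed from most of the other genes in its controls: against mCherryRNAi replicate 1 alone the log2 difference was 0.28, and against the mean of replicates 2 and 3 it was 0.28 as well.

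Dif (FBgn0011274; chromosome 2L, 17413248 to 17433161, minus strand) encodes the dorsal-related factor, which shares the Toll immune response with Dorsal. It lies 3668 bases from dl on the same strand, with 2 annotated genes between them. It had 2173, 2330.0 and 2263 normalized counts in tmodRNAi replicates 1 to 3, against 2283, 1675 and 1850.4 in mCherryRNAi replicates 1 to 3. The groups overlapped through control replicate 1. The log2 difference was 0.23 (SE 0.13, 95% interval -0.07 to 0.54, adjusted p = 0.20, limma), and it passed without that control (0.36 on the log2 scale, adjusted p = 0.014). Its exons overlap CG15141 on the opposite strand over 252 bases.

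Levels per kb of exonic length place the factors relative to each other. Rel was the most abundant of the 10 genes, at 5442 ± 461 normalized counts per kb in tmodRNAi and 7399 ± 1509.5 in mCherryRNAi (SD, n = 3 each). dl followed at 3519 ± 349 per kb in tmodRNAi and 2890.2 ± 54.0 in mCherryRNAi. Dif stood near the bottom, at 396 ± 13.8 per kb in tmodRNAi and 340.0 ± 55.0 in mCherryRNAi. Within each library, dl per kb was 7.83 to 10.2 times Dif in tmodRNAi and 7.22 to 9.63 times Dif in mCherryRNAi. The ratio of Rel to dl per kb was 1.28, 1.71 and 1.70 in tmodRNAi replicates 1 to 3, against 1.96, 2.84 and 2.88 in mCherryRNAi replicates 1 to 3. It did not overlap between the groups, but it only combines the opposite differences of Rel and dl given above. No share of such ratios over other gene pairs was computed. The ratio of Rel to Dif per kb did overlap, at 13.0, 13.4 and 14.8 in tmodRNAi replicates 1 to 3. In mCherryRNAi replicates 1 to 3 that ratio was 14.2, 27.4 and 26.1.

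**Figure D3:**
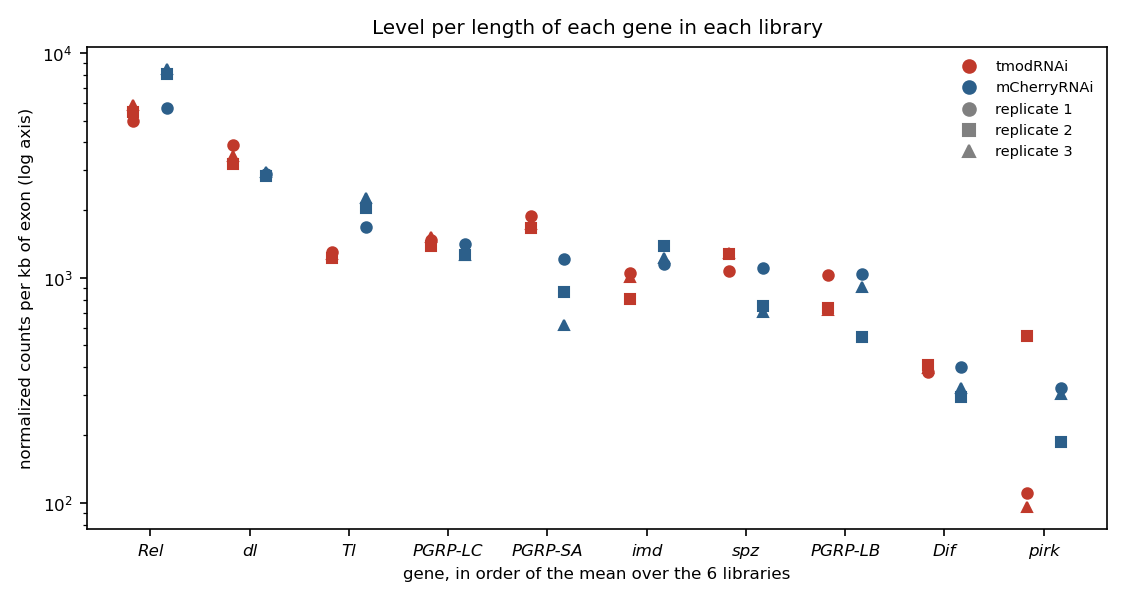
Normalized counts per kb of exon (vertical axis, log scale) of the 10 genes in each library, with genes in order of their mean over the 6 libraries. Rel and dl stand above the others in each library, at no less than 4968 and 2834 per kb, and Dif and pirk have the lowest means, at 368 and 262 per kb.

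Over the 6 libraries the order of mean level per kb was Rel, dl, Tl, PGRP-LC, PGRP-SA, imd, spz, PGRP-LB, Dif and pirk. The ranges of Rel and dl did not overlap, nor those of dl and Tl. From Tl down to PGRP-LB each gene overlapped its neighbour in that order, at means of 1633 to 829 per kb, so the order of neighbours is uncertain. Genes further apart in that order could be separate. The lowest values of Tl (1228 per kb) and PGRP-LC (1259 per kb) exceeded the highest of PGRP-LB (1041 per kb). PGRP-LB lay above Dif in each of the 6 libraries, and the ranges of Dif and pirk overlapped. The order changed with genotype: in tmodRNAi the mean of PGRP-SA per kb (1756) exceeded that of Tl (1265), whereas in mCherryRNAi PGRP-SA (896) was below Tl (2000.2). Exonic length pools all annotated transcripts, so a gene read mainly from a short isoform is understated.

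The negative regulators of the Imd pathway gave no call. pirk (FBgn0034647; chromosome 2R, 21660967 to 21662995, minus strand) encodes a protein that binds PGRP-LC and Imd and damps the signal, and is itself a known Imd target. It had 203, 1017 and 176 normalized counts in tmodRNAi replicates 1 to 3, against 596, 344 and 563 in mCherryRNAi replicates 1 to 3. The tmodRNAi libraries spanned a highest to lowest ratio of 5.77, the widest of the 10 genes. Replicate 2 lay above all controls and the others lay below them. The log2 fold change was -0.55 (SE 0.69, 95% interval -2.24 to 1.14, adjusted p = 0.56, limma). In edgeR it was -0.09 and in DESeq2 -0.10. By limma it was -0.20 without tmodRNAi replicate 1 (adjusted p = 0.87), -1.36 without replicate 2 (0.12) and -0.10 without replicate 3 (0.93). Its size thus depends on which of these libraries is used. The sum of the 8 gut markers was 228, 470 and 627 in tmodRNAi replicates 1 to 3. In mCherryRNAi replicates 1 to 3 it was 970.5, 96.5 and 41.7. By limma 0 of the 5 tested were called, against 23.8% of all tested genes. The sum of the 6 neuron markers was 13048, 16240 and 13135 in tmodRNAi replicates 1 to 3, against 12527, 8179 and 9343 in mCherryRNAi replicates 1 to 3. By limma 1 of the 6 was higher and 0 lower, against 10.9% and 12.9% of all tested genes. Among the tmodRNAi libraries each of the 6 was highest in replicate 2. In tmodRNAi replicates 1 to 3 the most abundant, Syx1A, had 9073, 9314 and 9247 normalized counts, and brp had 246, 707 and 187. The part of gut or neuron RNA in the values of pirk was not tested.

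PGRP-LB (FBgn0037906; chromosome 3R, 11452849 to 11460552, minus strand) encodes an amidase that degrades DAP-type peptidoglycan before it reaches the receptor. It had 1830.5, 1299 and 1276 normalized counts in tmodRNAi replicates 1 to 3, against 1848, 965 and 1613 in mCherryRNAi replicates 1 to 3. The groups overlapped almost entirely, and the means were 1468 ± 314 in tmodRNAi and 1475 ± 457 in mCherryRNAi (SD, n = 3 each). The log2 fold change was 0.03 (SE 0.28, 95% interval -0.65 to 0.70, adjusted p = 0.95, limma). Its sign turned with median centring (-0.03), in DESeq2 (-0.00066) and without tmodRNAi replicate 1 (-0.14) or mCherryRNAi replicate 2 (-0.25). The interval allows a rise or a fall of more than 0.6 on the log2 scale.

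For 7 of the 10 genes, control replicate 1 was the control nearest the tmodRNAi mean, as it was for 65.1% of all tested genes. Against this library alone, the log2 differences of Rel, spz, Dif and PGRP-LC were -0.06, 0.12, -0.02 and 0.04. Against the mean of replicates 2 and 3 they were -0.61, 0.73, 0.36 and 0.21. PGRP-SA differed by 0.53 from replicate 1 and by 1.27 from the other controls, and Tl by -0.41 and -0.77. When replicate 1 was left out, 7 of the 10 genes passed (PGRP-LC, PGRP-SA, spz and Dif higher, against 22.5% of all tested genes, and Tl, imd and Rel lower, against 25.0%), and 5203 of all tested genes (47.4%) did. In the other 5 fits that left out 1 library none of the 10 passed by limma. The unadjusted p was under 0.05 for 2 to 4 of them, and for 3227 to 4078 of all 10969 tested genes. In those fits 0.538% of all tested genes passed without tmodRNAi replicate 1, 0.0182% without mCherryRNAi replicate 2 and 0 genes in the others. The summed muscle markers of control replicate 1 likewise lay between those of the other controls and the tmodRNAi libraries, and their part in these differences was not tested.

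**Figure D4:**
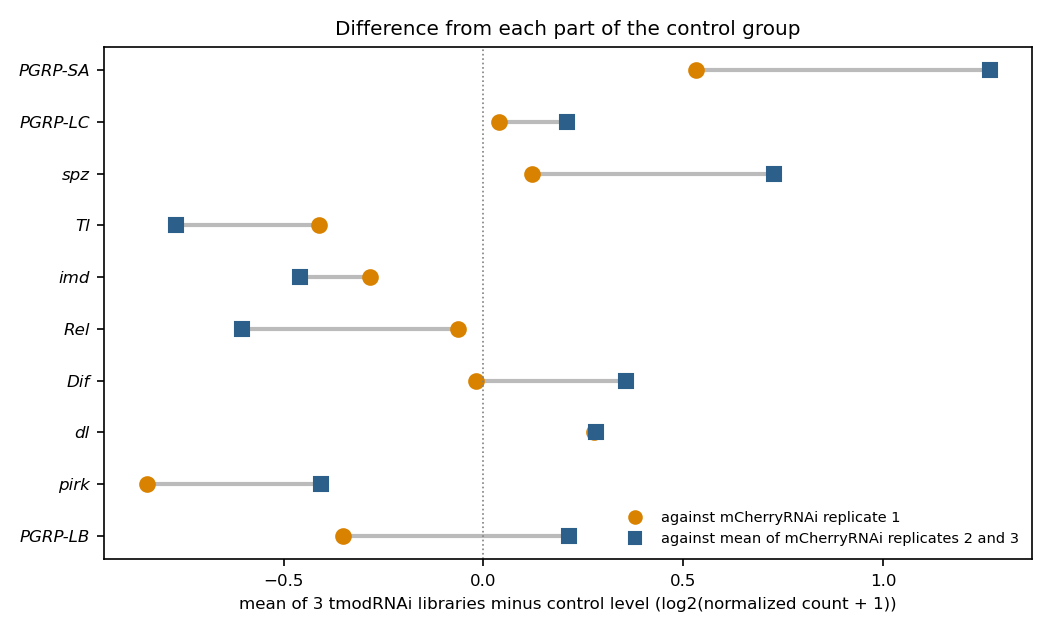
Log2 difference between the mean of the 3 tmodRNAi libraries and mCherryRNAi replicate 1 (orange) or the mean of mCherryRNAi replicates 2 and 3 (blue) for each of the 10 genes. The 2 values nearly coincide for dl, while for Rel they are -0.06 and -0.61 and for spz 0.12 and 0.73.

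The rest of the pathways was read from 8 lists holding 91 other genes, of which 76 were tested. Of these, 23 (30.3%) passed, against 23.8% of all tested genes, with 5 higher and 18 lower in tmodRNAi, where 10.9% and 12.9% of all tested genes were. Without mCherryRNAi replicate 1, 22 of these 23 still passed, Mtk being the exception. In the other 5 fits that left out 1 library, none of the 76 passed by limma. Their unadjusted p was under 0.05 for 26 to 35 of the 76, and for 3227 to 4078 of all 10969 tested genes.

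Among other recognition proteins, 1 of 9 tested genes rose and 0 fell, against 10.9% and 12.9% of all tested genes, with a list median of 0.16. That gene was PGRP-LA, a membrane protein of the family, with 2014, 1807 and 2082 normalized counts in tmodRNAi replicates 1 to 3, against 1479, 1193 and 1209 in mCherryRNAi replicates 1 to 3. The groups did not overlap, and PGRP-LA rose by 0.61 on the log2 scale (limma, SE 0.11, adjusted p = 0.031). The recognition genes GNBP1 and GNBP3 were not called, at log2 fold changes of 0.16 and -0.01.

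Of 8 tested extracellular proteases and serpins upstream of Spatzle, 2 were higher and 2 lower, against 10.9% and 12.9% of all tested genes. psh, the protease Persephone that senses microbial proteases, had 401, 504 and 698 normalized counts in tmodRNAi replicates 1 to 3, against 151, 77.2 and 100.5 in mCherryRNAi replicates 1 to 3. It rose by 2.29 on the log2 scale (SE 0.31, adjusted p = 0.031, limma). SPE, the enzyme that cleaves Spatzle, rose by 1.01 (adjusted p = 0.042), at 2915 ± 442 normalized counts in tmodRNAi and 1490.3 ± 509.8 in mCherryRNAi (SD, n = 3 each), and 8.45% of its exonic length is shared with CG18754 on the same strand. Hayan, a protease related to psh, fell by 0.54 (adjusted p = 0.043), but 36.2% of its exonic length overlaps an antisense RNA.

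The protease gene spirit had the largest fall of this list, a log2 fold change of -2.73 (SE 0.73, adjusted p = 0.046, limma). It had 2142, 2043 and 1959 normalized counts in tmodRNAi replicates 1 to 3, against 3938, 27632 and 23166 in mCherryRNAi replicates 1 to 3. Control replicate 1 lay nearer to the tmodRNAi libraries than to the other controls, and without it the log2 fold change was -3.63 (adjusted p = 9e-05, limma).

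Of 10 tested intracellular Toll components, 5 fell (pll, Myd88, mop, cact and Pli) and 0 rose, against 12.9% and 10.9% of all tested genes, and the list median was -0.47. The groups did not overlap for 9 of the 10, all lower in tmodRNAi, a pattern met by 26.4% of all tested genes. pll, the Pelle kinase, had 1785, 1546 and 1410.2 normalized counts in tmodRNAi replicates 1 to 3, against 2686, 3299 and 2914 in mCherryRNAi replicates 1 to 3. It fell by 0.91 on the log2 scale (limma, SE 0.12, adjusted p = 0.031). Myd88, the adaptor below Toll, fell by 0.71 (adjusted p = 0.033). cact, which encodes the inhibitor Cactus that holds Dif and Dorsal in the cytoplasm, fell by 0.55 (adjusted p = 0.042), at 17170 ± 2810.4 normalized counts in tmodRNAi and 25079 ± 2451 in mCherryRNAi (SD, n = 3 each). mop, which also works in general endosomal sorting, fell by 0.96 (adjusted p = 0.038).

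The intracellular Imd components gave 2 lower genes of 11 tested and 0 higher, against 12.9% and 10.9% of all tested genes, with a list median of -0.20. The groups did not overlap for 7 lower and 1 higher of these 11, against 26.4% and 25.0% of all tested genes. key, the regulatory subunit of the IKK complex, had 5112, 4688 and 5012 normalized counts in tmodRNAi replicates 1 to 3, against 6268, 7167 and 7304 in mCherryRNAi replicates 1 to 3. It fell by 0.48 on the log2 scale (limma, SE 0.09, adjusted p = 0.031). ben, a ubiquitin-conjugating enzyme with other roles as well, fell by 0.44 (adjusted p = 0.043). The catalytic kinase gene IKKbeta was not called, at a log2 fold change of 0.02, and 8.08% of its exonic length is shared with a noncoding RNA on the same strand.

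Of 12 tested inhibitors of the Imd pathway, 4 fell and 0 rose, against 12.9% and 10.9% of all tested genes. These were the deubiquitinase genes CYLD (-0.58, adjusted p = 0.031, limma), trbd (-0.64, adjusted p = 0.048) and Duba (-0.49, adjusted p = 0.048), and RYBP (-0.70, adjusted p = 0.042), each as a log2 fold change. For CYLD, 15.0% of the exonic length overlaps an antisense RNA. The median of the 12 inhibitors was -0.51. The groups did not overlap for 7 lower and 2 higher of them, against 26.4% and 25.0% of all tested genes. Among other Toll receptors and Spatzle-family ligands, 1 of 9 tested genes rose and 0 fell, against 10.9% and 12.9% of all tested genes. That gene, spz6, had 796, 726 and 807 normalized counts in tmodRNAi replicates 1 to 3. In mCherryRNAi replicates 1 to 3 it had 419, 220.4 and 218. It rose by 1.51 on the log2 scale (limma, SE 0.27, adjusted p = 0.031).

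**Figure D5:**
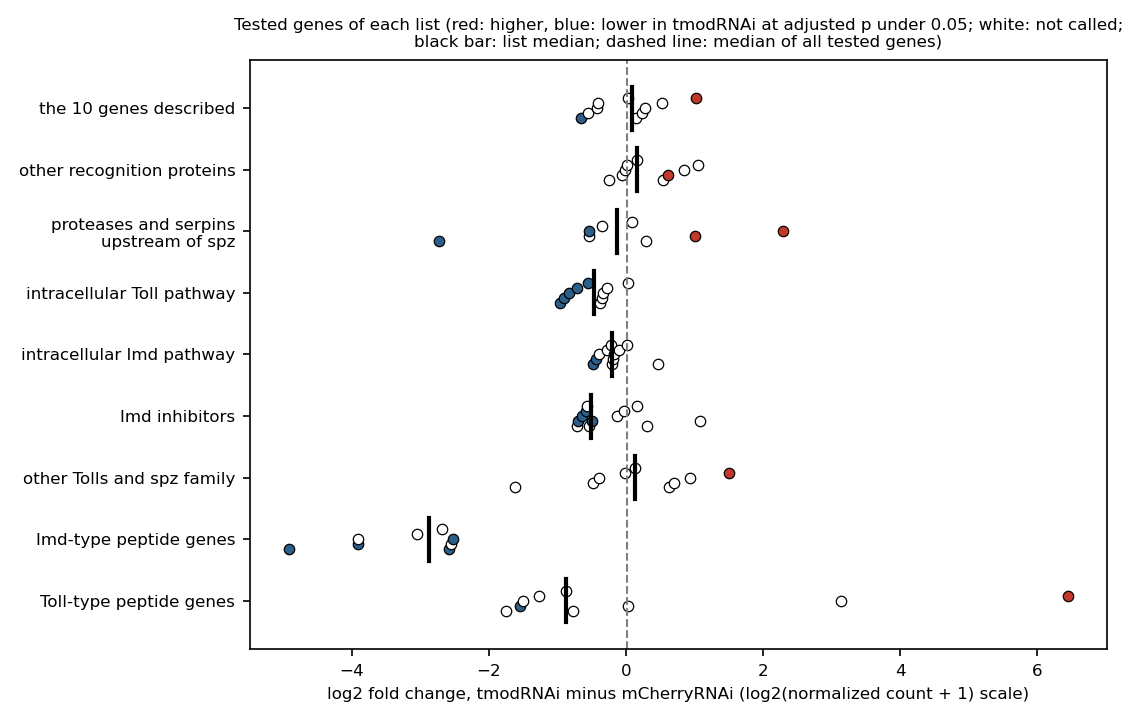
Log2 fold change, tmodRNAi minus mCherryRNAi, of each tested gene of the pathway lists; red and blue points are higher and lower in tmodRNAi at an adjusted p under 0.05 by limma, black bars are list medians and the dashed line is the median of all tested genes. Intracellular Toll genes (median -0.47) and Imd inhibitors (median -0.51) lie mostly left of the line, and the tested Imd-type peptide genes lie all left of it (median -2.87).

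The peptide genes at the end of the pathways summed, per list, to at most 2508 normalized counts in any library. The 11 Imd-type genes together had 147, 192 and 88.2 normalized counts in tmodRNAi replicates 1 to 3, against 688, 2508 and 1621 in mCherryRNAi replicates 1 to 3. Of the 8 tested, 4 fell (AttA, AttB, Dro and CecA2), against 12.9% of all tested genes, and the list median was -2.87. AttA fell by 4.92 on the log2 scale (adjusted p = 0.031, limma). AttA and AttB are neighbours of similar sequence, so their separate values are uncertain. CecA2 had 0, 4.26 and 0 normalized counts in tmodRNAi replicates 1 to 3, against 6.86, 65.2 and 33.1 in mCherryRNAi replicates 1 to 3, and its call was lost in edgeR and with both other pseudocounts. The 9 Toll-type genes together had 822, 259 and 1302 in tmodRNAi replicates 1 to 3, against 630.3, 668 and 1474 in mCherryRNAi replicates 1 to 3, which overlap. Of these 9, all tested, 1 rose and 1 fell, against 10.9% and 12.9% of all tested genes. IM4 rose (adjusted p = 0.031, limma), with 266, 84.2 and 200.7 in tmodRNAi replicates 1 to 3. In mCherryRNAi replicates 1 to 3 it had 5.88, 0 and 0. Mtk fell by 1.54 on the log2 scale (adjusted p = 0.049, limma). Mtk passed in none of the 6 fits that left out 1 library.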

How the data were processed

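Polyadenylation or depletion, aligner, counting tool and strand setting are not given in the sources used here. Total RNA was Trizol-extracted, libraries were SMARTerAmpSeq, and 50 nt paired-end runs were made, per the labels' protocols. The submitters' processing notes name DESeq2 1.30.1 and the dm6 build. The authors deposited normalized counts, a signal that is never negative. In each column 100% of values were whole multiples (within 0.01 reads) of 1 step per library, so whole reads were recovered. DESeq2 size factors recomputed from them times the step gave 1.

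Values were compared as log2(normalized count + 1) with limma 3.58.1 (trended prior, R 4.3.3) over genes with a mean of at least 10, with Benjamini-Hochberg adjustment over all 10969 tested genes. Fold changes of low genes are understated by the added 1. Fits were tested on simulated counts. The alternatives changed the pseudocount (0.1 or 10), the filter (none, or a minimum mean of 50), the scaling (median centring or quantile), the test (limma with no trend, and edgeR 4.0.16 or DESeq2 1.42.0 on recovered reads) or the libraries (each left out in turn), or added a replicate block. Positions, lengths and overlaps come from Ensembl BDGP6.54, which holds 17710 of the 17807 identifiers. Named are tmod, the 10 genes and from each list at most 4 called genes, taken by adjusted p, beside exceptions given in the text. The 10 genes and the lists were chosen with earlier results of these data known. BaraA2 is not analysed here.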

Additional observations from a re-analysis of the deposited data

How the results depend on the processing

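The number of the 10 genes past the threshold was 2 and stayed between 2 and 3 with either changed pseudocount or filter, either changed scaling, and in edgeR. Over all tested genes 2613 passed, and 23 of the 76 other pathway genes. In limma without the trend the counts were 1 of the 10, 9 of the 76 and 954 overall. In DESeq2 they were 4 (PGRP-SA, dl, imd and Tl), 38 and 4364. Across the 6 fits that each left out 1 library they ranged from 0 to 7, 0 to 48 and 0 to 5203, with the highest counts without mCherryRNAi replicate 1. With the replicate block they were 0, 0 and 0 by limma, with 3, 34 and 3969 genes at an unadjusted p under 0.05. The numbers gave no sign of pairing: deviations of same-numbered libraries from their group means correlated at -0.06, 0.02 and -0.02. Only PGRP-LB changed sign, at -0.0271 with median centring, -0.0007 in DESeq2, and -0.144 without tmodRNAi replicate 1 and -0.254 without mCherryRNAi replicate 2, in a range up to 0.214 over the 6 fits. The cause of these changes was not tested. Depth was not limiting for the 10 genes, and low counts limit the peptide genes.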

Other observations

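PGRP-LA, PGRP-LC and PGRP-LF lie in a row on the plus strand of chromosome 3L, with 473 bases between the first and the second and 1272 between the second and the third. Their log2 fold changes (tmodRNAi minus mCherryRNAi, limma) were 0.61, 0.15 and 0.85, with adjusted p-values of 0.031, 0.19 and 0.073. PGRP-LF, which encodes an inhibitor of PGRP-LC and was named after its values were seen, had 748, 1294 and 989 normalized counts in tmodRNAi replicates 1 to 3, against 745.0, 537 and 405 in mCherryRNAi replicates 1 to 3. The groups of PGRP-LF did not overlap, but control replicate 1 and tmodRNAi replicate 1 were nearly equal. Its exons overlap those of UGP on the opposite strand over 602 bases, 44.4% of its exonic length, and the strand setting of the counting is not given, so its values are uncertain.

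Of the 91 other pathway genes, some had a mean under 10 normalized counts and were not tested. Among them, PGRP-SC1a and PGRP-SC1b had 0 reads in all 6 libraries, and PGRP-SB2, Tehao, Toll-4, wntD, sphinx1 and sphinx2 were close to the floor of 3 reads in each library. These genes were named after their values were seen. The receptor gene Toll-7, also named after its values were seen, was read at 2413, 2601 and 2317 normalized counts in tmodRNAi replicates 1 to 3, against 2065, 2701 and 2703 in mCherryRNAi replicates 1 to 3, and was not called (log2 fold change -0.02, adjusted p = 0.92, limma).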
